A study of Mus musculus with 14 samples.

Results

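The transcripts of 7 genes that mark the bile duct epithelium, *Krt7*, *Krt19*, *Epcam*, *Sox9*, *Spp1*, *Cftr* and *Pkhd1*, were followed in bulk RNA sequencing of mouse liver. They were taken by gene name from a table of raw read counts of 55487 genes, and each name matched 1 row. The 14 libraries came from the right liver lobe of male TALLYHO mice, 8 to 12 weeks old, a strain in which many loci together give rise to diabetes. The vehicle group (7 mice) received water by oral gavage and the indole group (7 mice) received 20 mg/kg indole, a product of bacterial tryptophan breakdown, 2 times per day for 7 days. Both groups then went through glucose and insulin tolerance tests, with another day of dosing between them, and tissue was taken on the day after the second test. The comparison asks whether indole altered the liver transcriptome of these diabetic mice, and no group of non-diabetic mice is part of it.

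Cholangiocytes are the epithelial cells that line the bile ducts. They form a small share of the liver, modify bile by secreting chloride, bicarbonate and water, and carry a primary cilium that senses flow. They express keratins 7 and 19, which hepatocytes lack or nearly lack, beside keratins 8 and 18, which both cell types share. *Sox9* encodes a transcription factor of the biliary lineage, *Epcam* a cell adhesion molecule, *Spp1* the secreted glycoprotein osteopontin, *Cftr* an apical chloride channel and *Pkhd1* fibrocystin, a protein of the cilium.

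The libraries held between 15197498 and 21060376 reads on genes, with a median of 18117524 for vehicle and 17740715 for indole. Reads of 10 hepatocyte markers summed to between 73743 and 111894 CPM, the usual unit for reads of a gene relative to the total of its library (here with TMM scaling). Of 8 exocrine pancreas markers, 4 had no read and the sum was at most 0.103 CPM in any library. Of 7 intestinal markers, *Cdh17*, *Cdx2*, *Gpa33* and *Muc13* had no read. *Fabp2* had 13786 reads in all, *Lgals4* 337 and *Vil1* 35, and the sum of the 7 was 42.6 to 73.9 CPM. Libraries within a group differed by more than sampling noise (chi-square per degree of freedom at least 16.7 for every pair). In a sum of 10 interferon-induced genes, chosen after the data had been seen, vehicle-treated mouse G11 (348.5 CPM) and indole-treated mouse G8 (662.4 CPM) stood above the other 12, which ranged from 140.4 to 200.5 CPM.

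All 7 markers were detected, and 6 of them had reads in all 14 libraries. *Spp1* had 7505 reads in all, *Pkhd1* 1365, *Sox9* 748, *Krt19* 398, *Krt7* 300 and *Epcam* 269. These 6 passed edgeR's filter for low counts and were tested among 12653 genes. *Cftr*, with 20 reads, was too sparse for the test. The lowest count behind a tested value was 6 reads, for *Epcam* in indole-treated mouse G8, so counting error enters the differences between mice for the rarer markers.

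Promoter sequences from RefSeq were found for 5 of the 7 markers. That of *Krt7*, the marker that varied most between mice among those tested, is shown, with 66.3% G or C. It covers the 250 bases before and the 50 bases after the start site on GRCm38.p6, written 5′ to 3′ on the strand of the gene. In *Krt7* (chr15:101412153-101412452, plus strand) the capitals mark 4 GC boxes (GGGCGG on either strand), and none overlap. The RefSeq start site of *Krt7* lies inside the deposited gene model, which begins further upstream.
Krt7: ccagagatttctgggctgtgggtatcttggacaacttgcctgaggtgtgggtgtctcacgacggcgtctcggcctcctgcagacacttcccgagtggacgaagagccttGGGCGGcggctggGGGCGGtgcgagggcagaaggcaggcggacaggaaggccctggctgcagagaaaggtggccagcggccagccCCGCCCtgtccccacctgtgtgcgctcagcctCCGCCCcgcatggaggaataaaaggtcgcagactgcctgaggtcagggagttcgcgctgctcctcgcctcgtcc

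Of all 32851 promoters of this length in the RefSeq set, 35.7% held a GC box. A TEAD site (GGAATG) and an RBPJ site (TGGGAA), searched on both strands as the letters bound by the YAP and Notch pathways, were in none of these 5 genes' promoter windows. They were in 14.7% and 25.6% of all promoters.

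Among the 6 tested markers, *Krt19* differed most between the groups. It encodes a small type I keratin that is used to stain bile ducts in tissue sections, and lies on chromosome 11 of GRCm38 from 100140810 to 100148665 on the minus strand (ENSMUSG00000020911). In the vehicle group its level ranged from 0.880 to 3.12 CPM with a median of 2.08 CPM, on 13 to 64 reads per mouse. In the indole group it ranged from 0.620 to 1.75 CPM with a median of 1.14 CPM, on 11 to 31 reads. All 7 indole-treated mice lay below the vehicle median and 5 of the 7 vehicle-treated mice lay above every indole-treated mouse, but vehicle-treated mouse G10 was at 0.880 CPM, so the groups overlapped.

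The mean of *Krt19* was 2.07±0.760 CPM (SD, *n*=7) with vehicle and 1.08±0.432 CPM (SD, *n*=7) with indole. Its log2 fold change was −0.94 (standard error, SE, 0.291, 95% interval −1.55 to −0.34), which is 0.520 of the vehicle level, with an unadjusted *p* of 0.00405 from edgeR's quasi-likelihood test. This *p* ranked 35 among the 12653 genes tested. After Benjamini–Hochberg adjustment over these genes it was 0.998, so the difference did not pass the threshold. An exact permutation test of log2 CPM gave a difference of −0.86 (two-sided, unadjusted *p*=0.0169), where the smallest *p* that 7 mice against 7 allow is 0.000583. With DESeq2 on all 22535 genes that had reads, the log2 fold change was −0.94 (SE 0.305, unadjusted *p*=0.00203, adjusted *p*=0.903).

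An unadjusted *p* below 0.05 was met by 1 of the 6 tested markers, *Krt19*, and by 3.81% of all genes tested (482 of 12653), or 2.28% counting only those that were lower with indole. By DESeq2 the same 1 marker met it, against 3.19% of genes. No gene in the table had an adjusted *p* below 0.05 in edgeR. All 6 tested markers had a log2 fold change below 0, against 48.7% of all genes, with a median of −0.25 against 0.00. In whole tissue, fewer cells of a type and less RNA per cell cannot be told apart.

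*Krt7* encodes the type II keratin that pairs with keratin 19 in ducts (chromosome 15 from 101411043 to 101430313, plus strand, ENSMUSG00000023039). Its level ranged from 0.666 to 2.54 CPM (median 1.22) with vehicle and from 0.507 to 1.61 CPM (median 1.05) with indole. The 2 highest libraries, G11 and G13, were both from vehicle-treated mice, and the remaining values overlapped. The log2 fold change of −0.48 (SE 0.326, 95% interval −1.16 to 0.20) had an unadjusted *p* of 0.155 from edgeR. Without mouse G11 it was −0.27 (unadjusted *p*=0.420).

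The keratins that cholangiocytes share with hepatocytes were far more abundant. *Krt8* was at 318.6±21.4 CPM (SD, *n*=7) with vehicle and 268.8±52.3 CPM (SD, *n*=7) with indole, a log2 fold change of −0.25 (SE 0.0994, unadjusted *p*=0.0228 from edgeR, adjusted *p*=0.998). Its unadjusted *p* was above 0.05 in the fits without G9 (0.0558), G2 (0.0533), G12 (0.0578) or G14 (0.0617). *Krt18*, its type I partner, had a log2 fold change of −0.15 (SE 0.117, unadjusted *p*=0.222 from edgeR). Without G8 both keratins had an unadjusted *p* below 0.05 in edgeR (median log2 fold change −0.29). The same held without G8 and G11 (median −0.32). The highest sum of the pair in any library, 700.0 CPM, was in indole-treated mouse G8, and the 3 lowest were in indole-treated mice G12, G14 and G2.

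**Figure D1:**
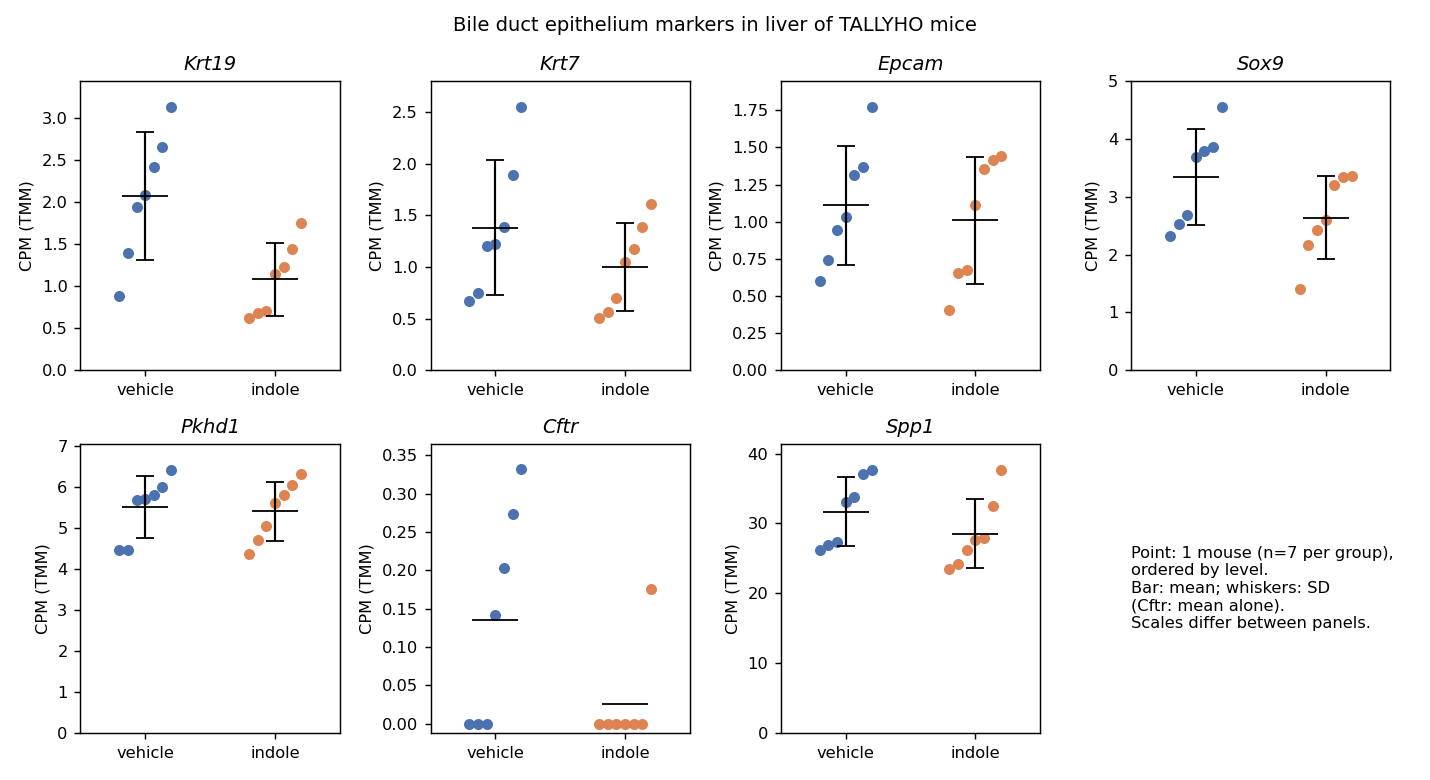
Levels of the 7 markers in each mouse, in TMM-scaled CPM on linear axes that differ between panels; points are mice, bars the group means and whiskers the SD (*n*=7 per group; *Cftr* without SD). For *Krt19*, 5 of 7 vehicle-treated mice lie above every indole-treated mouse, while *Epcam* overlaps over most and *Pkhd1* over nearly all of its range.

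*Epcam* lies on chromosome 17 from 87635979 to 87651129 on the plus strand (ENSMUSG00000045394). It ranged from 0.600 to 1.77 CPM (median 1.03) with vehicle and from 0.403 to 1.44 CPM (median 1.11) with indole. The log2 fold change was −0.13 (SE 0.310, 95% interval −0.78 to 0.51, unadjusted *p*=0.673 from edgeR), an interval wide enough to hold a change the size of that of *Krt7* in the same direction. The groups overlapped over most of their range, and 3 of 7 indole-treated mice lay below the vehicle median. Without mouse G11 the log2 fold change was 0.015, and with G8 and G11 both left out 0.14.

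*Sox9* (chromosome 11 from 112782224 to 112787760, plus strand, ENSMUSG00000000567) is also expressed by some hepatocytes next to the portal tract. Its level ranged from 2.32 to 4.55 CPM (median 3.69) with vehicle and from 1.41 to 3.37 CPM (median 2.60) with indole. As with *Krt19*, all 7 indole-treated mice were below the vehicle median, and 4 vehicle-treated mice were above every indole-treated mouse. The means of 3.35±0.834 and 2.64±0.722 CPM (SD, *n*=7 each) gave a log2 fold change of −0.34 (SE 0.207, 95% interval −0.77 to 0.09), and neither edgeR (unadjusted *p*=0.117) nor the exact permutation test (two-sided *p*=0.134) put this beyond the spread between mice.

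*Spp1* (chromosome 5 from 104435118 to 104441050, plus strand, ENSMUSG00000029304) was the most abundant marker. Osteopontin is made by cholangiocytes, and in injured liver also by macrophages and stellate cells. Its level ranged from 26.2 to 37.7 CPM (median 33.0) with vehicle and from 23.5 to 37.6 CPM (median 27.7) with indole. Of the indole-treated mice, 6 lay below the vehicle median, while G3 lay next to the highest vehicle-treated mouse. The log2 fold change was −0.15 (SE 0.112, 95% interval −0.39 to 0.08, unadjusted *p*=0.186 from edgeR), and without G3 it was −0.23 (unadjusted *p*=0.0397, adjusted *p*=0.953).

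*Pkhd1* (chromosome 1 from 20057779 to 20618064, minus strand, ENSMUSG00000043760), which is mutated in recessive polycystic kidney and liver disease, had nearly the same level in both groups. It ranged from 4.46 to 6.41 CPM (median 5.71) with vehicle and from 4.37 to 6.31 CPM (median 5.62) with indole. The log2 fold change was −0.03 (SE 0.129, unadjusted *p*=0.835 from edgeR). The 95% interval of −0.30 to 0.24 did not reach the estimate for *Krt19*, and it was the second narrowest among the 6 tested markers after that of *Spp1*.

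*Cftr* (chromosome 6 from 18170687 to 18322768, plus strand, ENSMUSG00000041301) sets chloride and bicarbonate flow into bile. Its 20 reads came from 5 of the 14 libraries. In the vehicle group, G4 had 5 reads, G10 had 3, G11 had 6 and G13 had 3, and the other 3 mice had 0. In the indole group, G14 had 3 reads and the other 6 mice had 0. With a floor of 3 reads, the 9 libraries at 0 allow a level of up to 0.146 to 0.202 CPM depending on their depth. The summed reads, 17 against 3, gave a ratio of vehicle to indole of 5.37 (exact 95% binomial interval 1.55 to 28.6), which covers counting error alone and not the difference between mice. Without the filter for low counts, edgeR gave a log2 fold change of −2.15 (SE 1.09, unadjusted *p*=0.0562, adjusted *p*=0.717). DESeq2 on all genes that had reads gave −2.42 (SE 1.48, unadjusted *p*=0.103, adjusted *p*=0.996). Between mice the log2 CPM did not differ beyond the spread (exact permutation test, two-sided *p*=0.119), so a difference was not detectable at this depth.

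**Figure D2:**
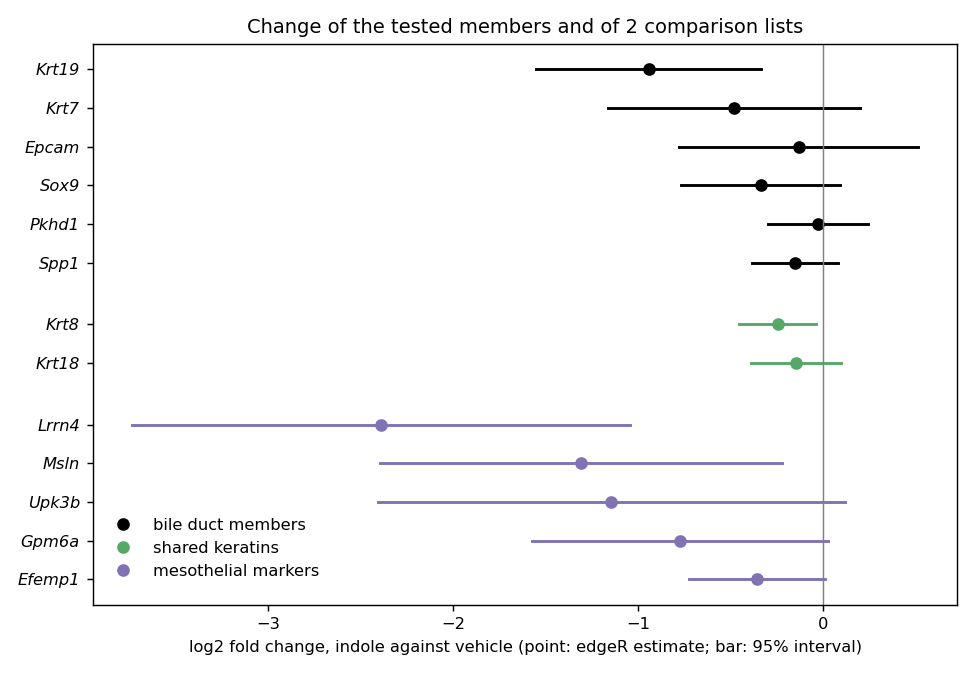
Log2 fold changes of indole against vehicle from edgeR (points) with 95% intervals (bars) for the 6 tested markers, the 2 shared keratins and the 5 tested mesothelial markers. Among the bile duct markers the interval of *Krt19* alone, −1.55 to −0.34, lies wholly below 0; so do those of *Krt8*, *Lrrn4* and *Msln*.

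To compare the markers with each other, CPM was divided by the deposited length of each gene model in kilobases. On this scale *Spp1* was at 19.2±2.96 CPM per kilobase with vehicle (SD, *n*=7), above every other marker in all 14 libraries. *Krt19* followed with 1.11±0.410, then *Sox9* with 0.809±0.202, *Epcam* with 0.506±0.183, *Pkhd1* with 0.385±0.0525, *Krt7* with 0.196±0.0932 and *Cftr* with 0.0175±0.0180 CPM per kilobase. *Krt19* and *Sox9* were not separated, since *Krt19* was the higher of the pair in 8 of 14 libraries, nor were *Epcam* and *Pkhd1*, where *Epcam* was higher in 10. *Sox9* exceeded *Epcam* in 13 libraries, and *Pkhd1* exceeded *Krt7* in all 14.

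In the indole group the means of *Krt19* and *Sox9* stood in the other order, at 0.583±0.233 and 0.639±0.175 CPM per kilobase (SD, *n*=7 each). In indole-treated mice G2 and G14 *Krt19* ranked 5 of 7, below *Epcam* and *Pkhd1*, whereas in vehicle-treated mice its lowest rank was 3. The *Krt7* model of 7049 bases is longer than its longest protein-coding transcript in GENCODE M21, which has 4094 bases. With such transcript lengths, an alternative chosen after the data had been seen, *Krt7* stood at 0.337 CPM per kilobase in the vehicle group. The order of the 7 vehicle means was the same, but *Krt7* then exceeded *Pkhd1* in mice G8, G11 and G13.

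**Figure D3:**
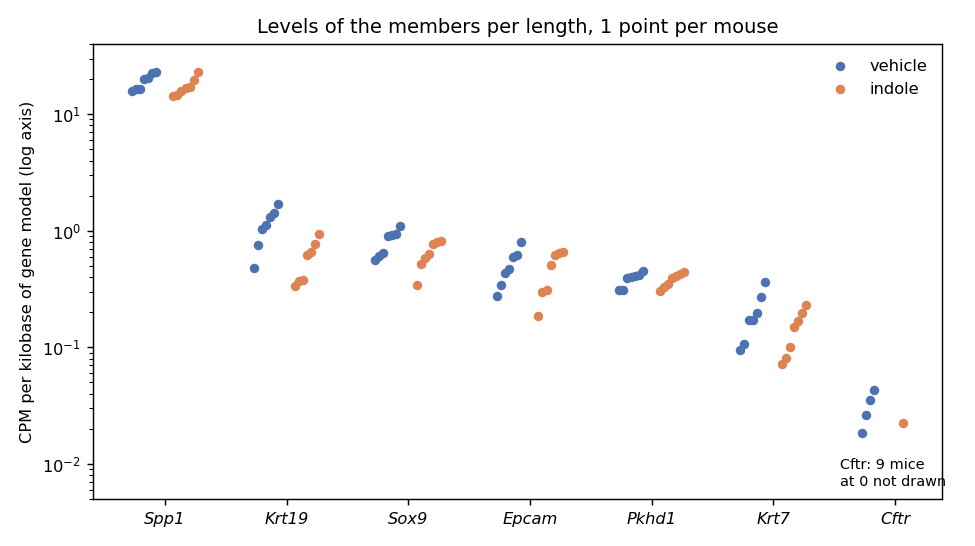
CPM per kilobase of gene model for the 7 markers on a log axis, with 1 point per mouse and the groups side by side. *Spp1* lies above every other marker in every mouse, and the 9 mice without a *Cftr* read are not drawn.

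The markers differed in how much they varied between mice. In the vehicle group the coefficient of variation was 47.6% for *Krt7*, 36.7% for *Krt19* and 36.2% for *Epcam*, of which counting error alone would give 19.7%, 16.1% and 22.0%. *Sox9* lay between these and the steadier markers at 24.9%, where counting would give 12.8%. *Pkhd1* varied by 13.6%, little above the 9.94% that counting would give. *Spp1* varied by 15.4%, where counting would give 4.15%. edgeR's dispersion is a measure of variation beyond counting error. Among all tested genes it stood at the 92.0 percentile for *Krt7*, 88.3 for *Krt19* and 88.2 for *Epcam*. It stood at 75.0 for *Sox9*, 46.3 for *Pkhd1* and 45.6 for *Spp1*. *Krt7*, *Krt19* and *Epcam* were also rare, at the 9.96, 13.6 and 8.44 percentiles of mean CPM, and rare genes tend to receive higher dispersions.

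The 15 pairs of tested markers were compared across the 14 mice on log2 CPM. All 15 Pearson coefficients were above 0, from 0.0778 to 0.696, but none had an adjusted permutation *p* below 0.05. The closest pair was *Krt19* and *Spp1*, with *r*=0.696 (permutation *p*=0.00751, adjusted 0.113), rho=0.657 (permutation *p*=0.0129, adjusted 0.193) and *r*=0.557 without G9 and G12. Within the groups *r* was 0.600 (vehicle) and 0.730 (indole). *Krt7* and *Krt19*, whose proteins pair in filaments, had *r*=0.499 (permutation *p*=0.0706, adjusted 0.265) and rho=0.459 (permutation *p*=0.101, adjusted 0.436), with 0.493 and 0.267 within the groups and 0.227 without G11 and G12. Only 6 of the 15 pairs had the same sign in both groups.

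*Krt19* and *Krt7* are also made by the mesothelium that covers the liver surface, so 10 mesothelial markers were read beside them. Of these, 5 had enough reads for the test, and all 5 had log2 fold changes below 0 (median −1.14), against 48.7% of all genes. An unadjusted *p* below 0.05 in edgeR was met by 2 of the 5, against 3.81% of all genes. The list was chosen with earlier results of these data known, so these counts describe the data and are not independent support. *Lrrn4*, a gene of the mesothelium, had a log2 fold change of −2.39 (SE 0.638, unadjusted *p*=0.00162 from edgeR) and *Msln*, which encodes mesothelin, one of −1.31 (SE 0.513, unadjusted *p*=0.0215), each with an adjusted *p* of 0.998. The count below 0.05 was 5 of 5 by limma, 4 of 5 without the robust fit and 3 of 5 by DESeq2 on the genes of the edgeR filter. It was 5 of 10 by DESeq2 on all genes that had reads, and 5 of 10 by edgeR without the filter. With 1 mouse left out it was 4 of 6 (G1 or G5), 4 of 5 (G3), 3 of 6 (G8) or 1 of 5 (G13), and 2 in the other such fits. Without G13 the unadjusted *p* of *Msln* in edgeR was 0.0555. The most abundant, *Efemp1*, was at 9.76±1.49 CPM with vehicle and 7.63±2.47 CPM with indole (SD, *n*=7 each). None of the 10 markers was without reads, and *Wt1*, a defining mesothelial transcription factor, had 47 reads over all mice.

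The summed mesothelial markers ranged from 12.8 to 34.3 CPM with vehicle (median 22.6) and from 6.53 to 22.8 CPM with indole (median 14.9). The 3 lowest libraries, G12, G14 and G2, were the 3 with the least *Krt19*, at 0.620, 0.702 and 0.682 CPM. Across the 14 mice the sum and *Krt19* gave *r*=0.788 (permutation *p*=0.00090, adjusted 0.0216) and rho=0.710 (permutation *p*=0.00576, adjusted 0.0691), adjusted over 24 relations of 6 markers with 4 cell types. Without G12 and G14 *r* was 0.645, and within the groups it was 0.437 (vehicle) and 0.852 (indole). The part of mesothelium in the *Krt19* difference was not tested.

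Markers of Kupffer cells and other macrophages were read in the same way. Their sum ranged from 128.9 to 299.3 CPM with vehicle and from 136.9 to 550.3 CPM with indole, and with *Krt7* it gave *r*=0.673 (permutation *p*=0.00652, adjusted 0.0782) and rho=0.767 (permutation *p*=0.00203, adjusted 0.0487). Without G8 and G10 *r* was 0.788, and within the groups it was 0.908 (vehicle) and 0.681 (indole). *Spp1* had *r*=0.270 with the same sum (permutation *p*=0.366, adjusted 0.549) and rho=0.398 (permutation *p*=0.162, adjusted 0.557). No macrophage marker of the 15 lacked reads, and their part in the level of *Krt7* was not tested. Of the remaining relations, including all with the sums of stellate cell and hepatocyte markers, none had an adjusted *p* below 0.05.

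**Figure D4:**
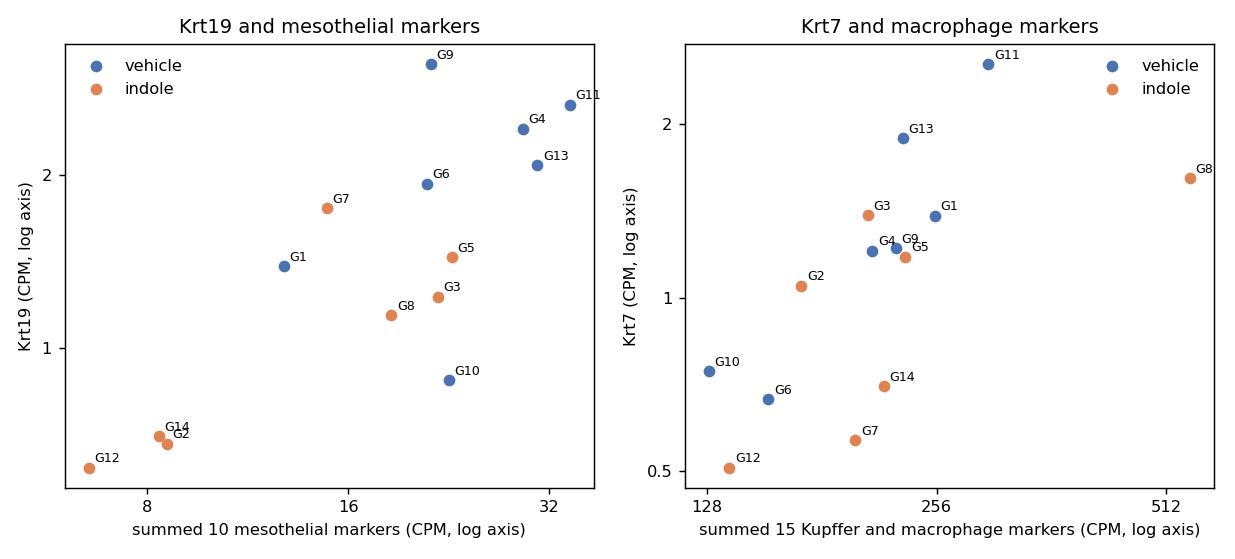
*Krt19* against the summed mesothelial markers (left) and *Krt7* against the summed Kupffer cell and macrophage markers (right), in CPM on log axes, with 1 labelled point per mouse. Mice G2, G12 and G14 are lowest for both *Krt19* and the mesothelial sum, and G8 stands to the right in the macrophage sum at 550.3 CPM.

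A further 72 genes were read in 5 lists, of which 58 had enough reads. Of the 58, 41 had a log2 fold change below 0 and 17 above, with a median of −0.09. Over all genes tested, 48.7% were below 0, with a median of 0.00. These lists too were chosen with earlier results of these data known. An unadjusted *p* below 0.05 was met by 4 of them, or 6.90%, against 3.81% of all genes, and none passed after adjustment. Many of these genes are expressed by hepatocytes too, so their values are not those of ducts alone.

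Among other cholangiocyte epithelial genes, 10 of 12 tested were below 0 (median −0.19), against 48.7% of all genes tested. None had an unadjusted *p* below 0.05 in edgeR, against 3.81% of all genes tested. The most abundant was *Cp*, ceruloplasmin, at 1080±118.8 and 969.1±185.4 CPM (SD, *n*=7 each), which hepatocytes also secrete. *Mmp7*, which encodes a matrix metalloproteinase of duct epithelium, was near the limit of detection with 13 reads in all. Of 9 tested biliary transcription factors, 8 were below 0 (median −0.16) and none had an unadjusted *p* below 0.05. The most abundant, *Onecut2*, was at 57.2±9.57 and 56.5±8.74 CPM (SD, *n*=7 each).

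Transport and bicarbonate secretion genes were 7 below and 4 above 0 among 11 tested (median −0.15), where 48.7% of all genes were below 0. Of the 4 genes with an unadjusted *p* below 0.05 in edgeR, 3 were in this list. That is 3 of 11 tested, against 3.81% of all genes. *Slc5a1*, the sodium–glucose cotransporter with which cholangiocytes take glucose from bile, had a log2 fold change of −0.52 (SE 0.202, unadjusted *p*=0.0174 from edgeR). *P2ry2*, an ATP receptor that drives ductal secretion, had one of −0.39 (SE 0.170, unadjusted *p*=0.0329), and *Slc10a2*, the apical bile acid transporter, one of 0.22 (SE 0.0944, unadjusted *p*=0.0296). Of these, *Slc5a1* stayed below 0.05 with each mouse left out. *P2ry2* was above 0.05 without G1 (0.0689), G9 (0.0661), G10 (0.0508), G13 (0.0575), G7 (0.0606), G12 (0.0754) or G14 (0.0669), and *Slc10a2* without G6 (0.0571), G11 (0.0728), G7 (0.0906) or G12 (0.051). *Abcc3*, the most abundant gene of the list, had a log2 fold change of −0.15 (unadjusted *p*=0.160). *Sctr*, the secretin receptor of large ducts, had 2 reads in all.

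Polycystic and ciliary genes were evenly divided, with 7 below and 6 above 0 and a median of −0.02, and none had an unadjusted *p* below 0.05. *Sec63*, the most abundant, was at 175.8±7.78 and 177.8±16.1 CPM (SD, *n*=7 each). In the Notch and YAP pathways, which guide bile duct formation, 9 of 13 tested were below 0 (median −0.04), against 48.7% of all genes. *Hes1*, a Notch target, had a log2 fold change of −0.61 (SE 0.276, unadjusted *p*=0.0397 from edgeR), and its *p* was above 0.05 by limma (0.117) and without G1 (0.0625), G6 (0.0702), G10 (0.115), G13 (0.0749), G5 (0.0634), G8 (0.0775), G12 (0.0736) or G14 (0.059). *Yap1*, the most abundant of this list, had one of −0.04 (SE 0.0779, unadjusted *p*=0.616).

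For each tested marker, the 2 genes whose log2 CPM had the highest Spearman coefficient with it over the 14 libraries were taken from all tested genes, as a description. They were *Icam1* (0.890) and *Meis1* (0.873) for *Krt7*, and *Ephb4* and *Nim1k* (0.877 each) for *Krt19*. For *Epcam* they were *Wdr37* (0.877) and *Acox3* (0.829), for *Sox9* *Kifc3* and *Zfp280b* (0.877 each), for *Spp1* *Tpm2* (0.868) and *Itprip* (0.859), and for *Pkhd1* *4632404H12Rik* (0.921) and *Baz2a* (0.864). None of these 12 genes is another of the bile duct markers, which says little, since only 2 of 12653 genes were taken for each. Coefficients picked as the highest of so many genes over 14 libraries are high by selection, and they were not tested. The points share their libraries and scaling.

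The log2 fold change of *Krt19* ranged from −1.10 without G7 to −0.81 without G9, with unadjusted *p* from 0.000982 to 0.0144 in edgeR, so no single mouse carried it. That of *Sox9* ranged from −0.41 to −0.23 and that of *Krt7* from −0.63 to −0.27. *Pkhd1* and *Epcam* crossed 0 in some of these fits. With G8 and G11 left out together, *Krt19* was at −0.89 (unadjusted *p*=0.0135).

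**Figure D5:**
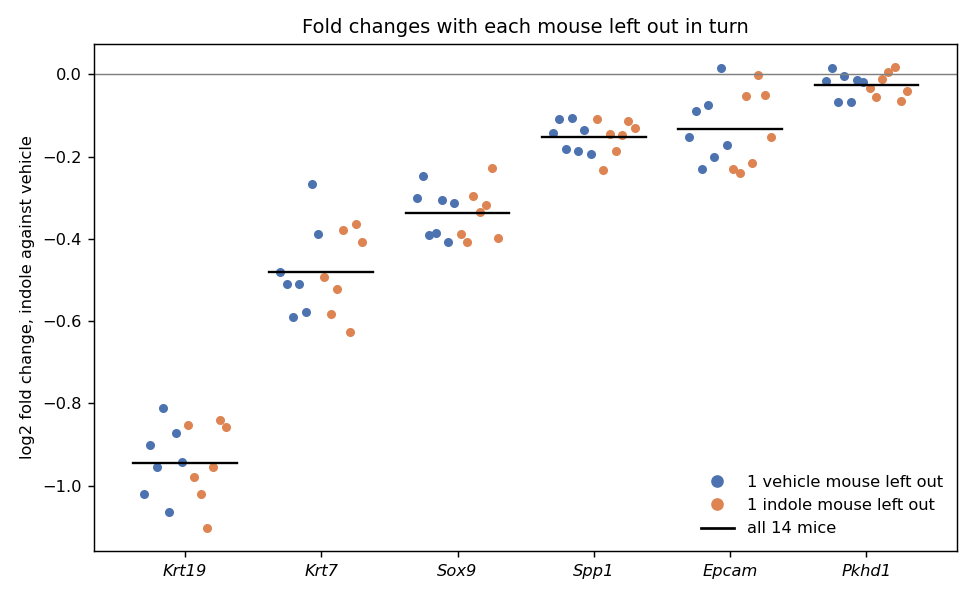
Log2 fold change of each tested marker with all 14 mice (line) and with each mouse left out in turn (points, coloured by the group of the mouse left out). *Krt19* stays between −1.10 and −0.81, and *Epcam* and *Pkhd1* lie on both sides of 0.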

How the data were processed

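Liver libraries of 14 TALLYHO mice (7 vehicle, 7 indole) were assigned to groups from the sample labels, and each mouse is called by its library name. The authors trimmed adapters, aligned strand-specific mRNA reads to GRCm38 (Ensembl 102) with HISAT2 and deposited raw counts of uniquely mapped reads per gene, without normalisation. The counting tool and its strand setting are not given in the sources used here. Of 50-base windows in the markers' GENCODE M21 transcripts, 11.6% were shared with another gene for *Spp1* (the overlapping *Gm42793*, with 0 reads), and between 0% and 1.12% for the others.

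Counts were tested with edgeR 4.0.16 in R 4.3.3 (filterByExpr, TMM, robust quasi-likelihood fit, all 14 mice), and Benjamini–Hochberg adjusted over 12653 genes. The procedure was tested on simulated data. Standard errors are the log2 fold change divided by the root of the F statistic. Log2 CPM used a prior count of 2, with exact permutation tests over 3432 relabellings that were not adjusted over the markers. Correlations used 100000 permutations. Intervals and floors of single counts cover counting error only.

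The alternatives were DESeq2 1.42.0, limma 3.58.1, other scalings and filters, a fit that was not robust, a prior count of 0.5 and leaving out mice. Genes named beyond the markers were those of a list that had an unadjusted *p* below 0.05, its most abundant gene, and the 2 most similar to each marker. A few more (*Krt18*, *Wt1* and genes at or near 0 reads) were chosen after their values were seen. The markers and lists were chosen with earlier results of these data known.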

Additional observations from a re-analysis of the deposited data

Results flagged for a closer look

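Dixon's ratio, the distance from the highest or lowest of 7 mice to the next as a share of their range, was computed for the 7 markers, their sum, the sums of 4 other cell types and the total reads in each group. Of 26 such ratios 2 exceeded the 95% critical value, where chance gives about 1 in 20, or 1.3. For *Cftr* in indole-treated mouse G14 the ratio was 1, since that mouse had 3 reads and the others of its group 0. With the others at 0, any number of reads in a single mouse gives this ratio. The flag therefore adds nothing to the 3 reads, and the rate expected by chance does not hold for it. For the summed Kupffer cell and macrophage markers in indole-treated mouse G8 it was 0.768, with 550.3 CPM against 233.0 CPM in the next mouse. In G8 *Krt7* was the highest of the indole group at 1.61 CPM and *Epcam* the lowest at 0.403 CPM.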

How the results depend on the processing

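Over 23 alternatives, *Krt19*, *Krt7*, *Sox9* and *Spp1* kept a log2 fold change below 0, and *Krt19* kept an unadjusted *p* below 0.05. The lowest adjusted *p* of *Krt19* was 0.619, by DESeq2 on the genes of the edgeR filter. With no mouse left out, its log2 fold change was −0.94 in each of these alternatives. *Epcam* was at 0.015 without G11 and 0.14 without G8 and G11. *Pkhd1* was at 0.014 without G4, 0.0047 without G7, 0.017 without G8 and 0.030 without G8 and G11. With each mouse left out in turn, log2 fold changes ranged from −0.24 to 0.015 for *Epcam*, −0.069 to 0.017 for *Pkhd1* and −0.23 (without G3, unadjusted *p*=0.0397 in edgeR) to −0.11 for *Spp1*. In these fits 1 to 2 markers had an unadjusted *p* below 0.05, with 2 in the fit without G3. The count in the 5 other bile duct lists ranged from 1 (without G12) to 6 (without G3), and was 2 without G1, G13 or G14. Over all genes, edgeR without a filter on low counts gave 1336 genes with an unadjusted *p* below 0.05, and DESeq2 on the genes of the edgeR filter gave 1 gene with an adjusted *p* below 0.05. A prior count of 0.5 changed no call of the permutation tests. Low depth adds counting error to *Cftr*, *Epcam*, *Krt7* and *Krt19*, with 20 to 398 reads in all. For *Krt7* and *Krt19* the coefficient of variation between vehicle-treated mice (47.6% and 36.7%) was above that from counting alone (19.7% and 16.1%). No paired analysis was possible because the labels pair no mice.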

Other observations

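Among the markers of other cell types, 4 further genes had an edgeR *p* below 0.05 before adjustment, each with an adjusted *p* of 0.998. They were 1 of 10 tested stellate, 1 of 13 macrophage, 1 of 10 hepatocyte and 1 of 2 intestinal markers. Over all genes tested the share was 3.81%. *Col1a1*, a collagen gene of activated stellate cells and portal fibroblasts, was at 8.94±1.74 CPM with vehicle and 5.61±2.49 CPM with indole (SD, *n*=7 each), a log2 fold change of −0.67 (SE 0.256), and its unadjusted *p* of 0.0188 in edgeR stayed below 0.05 with each mouse left out. *Dcn*, the most abundant stellate cell marker, had a log2 fold change of 0.03 (SE 0.105). Of 13 tested Kupffer cell and macrophage markers, 11 had a log2 fold change above 0 (median 0.20), but 3 of 13 without mouse G8 (median −0.15) and 8 of 13 by limma (median 0.02). *Cd9*, a membrane protein that macrophages share with many cells, had one of −0.29 (SE 0.125), and *Clec4f*, the most abundant Kupffer cell marker, one of 0.35 (SE 0.233). The hepatocyte gene *Ttr*, transthyretin, had one of 0.24 (SE 0.0843), while *Alb* had one of 0.01 (SE 0.0996). *Fabp2*, a fatty acid binding protein listed here with gut epithelium, was read at 52.3±8.07 CPM with vehicle and 60.7±8.11 CPM with indole (SD, *n*=7 each), a log2 fold change of 0.22 (SE 0.0997). The gut markers *Cdh17*, *Cdx2*, *Gpa33* and *Muc13* had no read in these livers, and the cells that gave the *Fabp2* reads were not tested. The unadjusted *p* of *Fabp2*, 0.0430 in edgeR, was above 0.05 in the fits without G1 (0.0769), G4 (0.0747), G9 (0.107), G13 (0.0782), G5 (0.0831), G7 (0.0842) or G8 (0.113), and that of *Cd9* (0.0287) without G9 (0.0587), G10 (0.0729), G2 (0.0617) or G12 (0.0713).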
